A study of Mus musculus with 12 samples.

Results

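The measurement described here is the difference between 6 h and 2 h of co-culture in glia that faced epithelium given PNU-282987 (PNU), which activates nicotinic acetylcholine receptors of the α7 type. It compares 3 libraries at 6 h with 3 libraries at 2 h. Its members are all genes that reached 1 CPM (the gene's count scaled by the library's total count) in at least 3 of these 6 libraries, which left 12756 of the 49315 genes counted. The rule was not neutral to the difference: 135 members were under 1 CPM in all 3 of the 2 h libraries and entered through 6 h alone, 92 of which are among the genes called as risen below, and 58 entered through 2 h alone, 38 of them called as fallen. The recipient cells are labelled primary Müller glia from wild-type mouse retina. They were passaged before use, 4 times per the design text, and shared medium across a transwell membrane with passaged primary RPE (retinal pigment epithelium). The RPE had been given 100 nM PNU in DMSO, or DMSO alone in the control groups, for which the labels state 0.1% in one place and 1% in another. RNA came from the glia. Both control groups, DMSO at 2 h and DMSO at 6 h with 3 libraries each, are used here to share the estimate of spread and to set the same time interval beside the one with PNU. The labels call the samples biological replicates without naming the animals or cultures behind them, so the p-values measure the spread between these samples, which may be technical. Mouse strain, age and sex are not given in the sources used here.

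Müller glia are the radial support cells of the retina. In fish they re-enter the cell cycle after injury and regenerate neurons, and in mammals they do so little unless stimulated. Serum, growth factors and other stimuli reach the nucleus of cultured cells through ERK and calcium signals that switch on immediate early genes, whose messengers appear and decay quickly. ATF4, the transcription factor of the integrated stress response, drives amino acid import, amino acid synthesis and tRNA charging. MYC and E2F drive ribosome production and DNA replication.

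The PNU libraries held 45260479 to 66518799 counts, and at that depth 3 counts, taken as the floor of detection, equal 0.0451 to 0.0663 CPM for counting error only. The 3 libraries of a group were not equally independent. Replicates 2 and 3 differed from each other by a coefficient of variation beyond counting error of 0.0299 at 2 h and 0.0387 at 6 h, against 0.132 and 0.136 between either of them and replicate 1 at 2 h and 0.221 at 6 h. The pairs still differed by more than sampling noise (chi-square per gene 2.32 and 3.68), so they were kept as separate libraries, and each main count is also given with such libraries summed. PNU 6 h replicate 1 lay nearer to the DMSO 6 h libraries (root mean square distance 0.280 to 0.283 in log2(CPM + 1)) than to its own replicates (0.438 and 0.439). DMSO 2 h replicate 3 lay nearer to the PNU 2 h libraries (0.204 to 0.299) than to its own (0.571 and 0.633). The DMSO 6 h libraries were near-identical to each other as well, at 0.0291 to 0.0335. Y-linked Ddx3y was present in PNU 2 h replicate 1, PNU 6 h replicates 2 and 3 and DMSO 2 h replicate 3, and at 0.141 CPM or less in the other 8 libraries. Whether libraries or cultures were exchanged between groups was not tested, and the group names below are those of the labels.

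A total of 1334 genes rose and 1394 fell from 2 h to 6 h with PNU at an adjusted p under 0.05 (edgeR quasi-likelihood test, Benjamini-Hochberg over the 12756 genes), or 21.4% of those tested. This is the background for the list counts of this fit, at 10.5% risen and 10.9% fallen. Other fits have a background of their own. Without DMSO 2 h replicate 3, 2756 of the 12756 genes rose with PNU and 2689 fell. The groups did not overlap for 58.8% of all tested genes, 34.1% with the 6 h libraries higher and 24.7% with them lower. The median log2 change was 0.64 among the genes that rose and -0.54 among those that fell, and 296 and 203 of them changed at least 2-fold. No gene passed when near-identical libraries were summed, which left 2 libraries per PNU group and 8 in all, and the smallest adjusted p was then 0.386. In that fit 1633 genes, 12.8%, had an unadjusted p under 0.05, and 1612 of them were among the 2728 called. Leaving out any single PNU library lowered the count, to between 631 (without 2 h replicate 3) and 1629 (without 6 h replicate 1). A total of 556 genes, 199 risen and 357 fallen, passed in each of these 6 fits, and 995 passed in none. With upper-quartile scaling the split shifted to 1923 risen and 1055 fallen, and with scaling by total counts to 1645 and 1148. The genes named below follow a rule given with the processing, and those beyond it, such as Chac1, Asns, Gars, Atf4, Csrnp1, Mcm7, Pax6, Six3 and many list members given by their fold change alone, were chosen after their values were seen.

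Immediate early genes had the lowest median change of all gene lists. Of 32 listed genes 31 were tested, 18 fell and 1 rose, with a median log2 change of -0.94 against 0.02 over all genes tested. The 2 h libraries lay above the 6 h libraries without overlap for 21 of the 31. Egr2, a zinc finger transcription factor of the early growth response family, stood at 124, 68.3 and 67.7 CPM in the 2 h libraries and at 8.48, 8.41 and 9.06 CPM in the 6 h libraries. Every 2 h library was several times higher than every 6 h library, and replicate 1 was the highest at 2 h. The log2 fold change was -3.37 (SE 0.58, adjusted p = 0.00656). Fosb, a partner of JUN in the AP-1 complex, was at 105, 82.6 and 83.4 CPM at 2 h and 9.71, 10.6 and 10.5 CPM at 6 h. Its groups were far apart and its 6 h libraries nearly equal, with a log2 fold change of -3.18 (SE 0.58, adjusted p = 0.00829). Egr3 ran from 48.6, 33.03 and 34.5 CPM to 4.25, 3.72 and 2.98 CPM, a log2 fold change of -3.45 (adjusted p = 0.00857).

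Orphan nuclear receptors of the Nr4a family are early genes too. Nr4a1 was at 906, 669.5 and 679 CPM at 2 h and 116, 98.9 and 99.5 CPM at 6 h, with a log2 fold change of -2.89 (SE 0.72, adjusted p = 0.0217). Nr4a3 was at 98.2, 60.5 and 61.3 and 15.9, 6.65 and 7.29 CPM, with a log2 fold change of -2.92 (SE 0.73, adjusted p = 0.0221). Neither gene's groups overlapped, and replicate 1 was highest in all 4 cases. Nr4a1 lost its call in each of the 6 fits that left out a PNU library and Nr4a3 in 5 of them. Nr4a2, the third receptor of the family, had a log2 fold change of -1.05 and did not pass (adjusted p = 0.149).

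Egr1 is also an immediate early gene but changed less. Its level was 282, 216 and 225 CPM at 2 h and 124, 73.02 and 73.8 CPM at 6 h, without overlap, with a log2 fold change of -1.46 (SE 0.20, adjusted p = 0.00308). Klf4, a zinc finger factor used in reprogramming, was at 381, 378 and 379.8 CPM and then 173, 189 and 188 CPM, so that the 3 libraries of each time were close together and the times well apart (log2 fold change -1.09, SE 0.18, adjusted p = 0.00617). Ier2 fell from 141, 101 and 101 CPM to 73.04, 49.05 and 50.4 CPM (log2 fold change -1.03, adjusted p = 0.00774). Fos, the founding member, was low at both times, at 24.3, 23.7 and 22.8 CPM and 25.1, 16.5 and 15.3 CPM. Its groups overlapped and it did not pass (log2 fold change -0.35, adjusted p = 0.298). The single listed gene that rose was Ccn1, a secreted matrix protein, from 468, 518 and 515 CPM to 606, 740.2 and 734 CPM (log2 fold change 0.43, adjusted p = 0.0106).

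**Figure D1:**
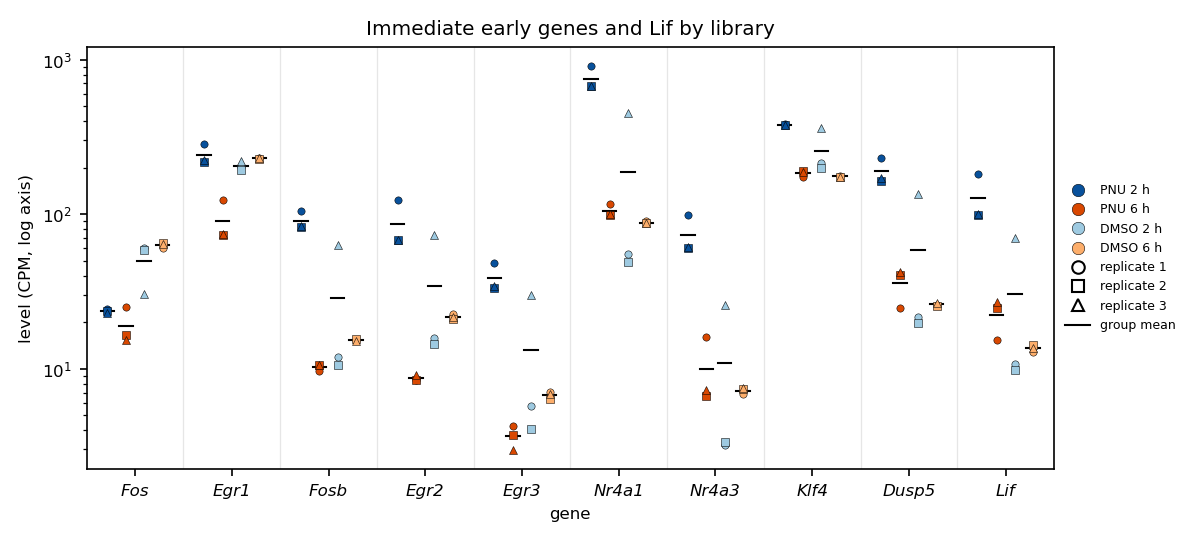
Levels in CPM on a log axis of 8 immediate early genes, Dusp5 and Lif in all 12 libraries; colours give the group, symbols the replicate and short lines the group mean. Egr2 ran from 67.7 to 124 CPM in the PNU 2 h libraries and from 8.41 to 9.06 CPM in the PNU 6 h libraries, and DMSO 2 h replicate 3 was at 73.0 CPM, apart from its own replicates.

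In the DMSO arm the early genes did not follow the same course in all libraries. Egr2 was at 15.7, 14.5 and 73.05 CPM at 2 h and 22.6, 20.8 and 21.5 CPM at 6 h, and Fosb at 11.96, 10.6 and 63.5 CPM and 15.3, 15.7 and 15.02 CPM. Replicate 3 at 2 h was near the PNU 2 h level in both genes, while replicates 1 and 2 were below the DMSO 6 h libraries. No early gene passed for time in DMSO, where 0 of all 12756 tested genes did and the list's median was -0.14. Without DMSO 2 h replicate 3, whose values enter the shared estimate of spread, 20 of the 31 genes fell with PNU and 3 rose. In that fit 2689 of all 12756 genes fell and 2756 rose. Over the 6 fits that left out a PNU library, 11 to 16 genes fell and 1 rose. With near-identical libraries summed, 14 had an unadjusted p under 0.05 and a lower 6 h level. The part of these differences between libraries in the result was not tested.

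Promoter sequence was examined for this list because its members moved together. Windows of 250 bases before the start site came from RefSeq (GRCm38.p6) and were used where that start lay within 1000 bases of the counted gene's start, which held for 8879 of the 12756 genes. The motifs, the distance limit and the rule for printing were chosen after the data and a first set of shares had been seen. Searched on both strands were the CArG box of serum response factor, the cyclic AMP response element TGACGTCA, its core TGACG (which the full element contains), the AP-1 site TGANTCA, the E-box CACGTG, the ATF4 element TGATGNAA and the E2F site GCGGGAA. The core was in 14 of 20 windows of the list (70.0%) and in 28.9% of all windows. Among the members that fell it was in 6 of 11 windows (54.5%). The full element was in 0 of these 11. Over the whole list it was in 3 of the 20, the CArG box in 1, the AP-1 site in 0, the ATF4 element in 0, the E2F site in 3 and the E-box in 5, against 3.04%, 1.07%, 4.01%, 1.75%, 7.43% and 8.85% of all windows. With no limit on distance the core was in 15 of 23 windows (65.2%) against 28.2%. A match is a description of letters and not a site in use.

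The windows of 3 fallen members that hold the core follow, 5′ to 3′ on the gene's strand, with the core or its reverse complement in capitals. They had the smallest p among the members considered for printing, which left out a chromosome, so members of smaller p may be missing. Klf4 is at chr4:55532476-55532725 on the minus strand, Fosb at chr7:19310046-19310295 on the minus strand, and Csrnp1, a nuclear protein induced by AXIN1 and cytokines, at chr9:119984743-119984992 on the minus strand. The first base of the match lies 232, 60 and 142 bases before the start. 
Klf4: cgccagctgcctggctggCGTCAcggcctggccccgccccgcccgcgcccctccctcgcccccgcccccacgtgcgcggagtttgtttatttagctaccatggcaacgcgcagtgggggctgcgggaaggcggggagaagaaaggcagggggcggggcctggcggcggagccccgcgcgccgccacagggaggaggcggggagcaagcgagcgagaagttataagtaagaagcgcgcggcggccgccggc
Fosb: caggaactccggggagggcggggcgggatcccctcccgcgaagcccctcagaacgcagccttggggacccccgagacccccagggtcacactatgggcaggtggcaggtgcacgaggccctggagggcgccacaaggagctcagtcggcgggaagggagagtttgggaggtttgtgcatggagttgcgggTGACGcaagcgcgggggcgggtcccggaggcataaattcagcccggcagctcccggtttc
Csrnp1: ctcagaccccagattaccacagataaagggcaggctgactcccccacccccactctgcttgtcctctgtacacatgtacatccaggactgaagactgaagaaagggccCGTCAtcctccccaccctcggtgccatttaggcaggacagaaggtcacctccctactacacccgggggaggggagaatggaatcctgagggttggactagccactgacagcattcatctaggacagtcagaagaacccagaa

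Csrnp1 itself was at 67.2, 49.9 and 50.7 CPM at 2 h and 15.7, 21.1 and 22.6 CPM at 6 h, without overlap (log2 fold change -1.54, SE 0.30, adjusted p = 0.00925).

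Genes downstream of ERK and of the EGF receptor were mostly lower at 6 h. Of 19 tested feedback inhibitors, ligands and ETS targets, 6 fell and 2 rose, with a median of -0.55. Dusp5, a nuclear phosphatase that inactivates ERK, was at 231, 165 and 172 CPM at 2 h and 24.8, 40.2 and 42.3 CPM at 6 h. The groups were well separated, and replicate 1 was the highest at 2 h and the lowest at 6 h (log2 fold change -2.45, SE 0.63, adjusted p = 0.0241). Errfi1, an inhibitor of the EGF receptor, was at 265, 127 and 126 CPM and then 56.5, 34.5 and 35.02 CPM (log2 fold change -2.08, adjusted p = 0.0186). Hbegf, an EGF receptor ligand linked to Müller glia proliferation, stood at 228, 183 and 187 CPM at 2 h and at 30.95, 57.9 and 56.3 CPM at 6 h. Its groups did not overlap, but the test only just passed (log2 fold change -2.09, SE 0.63, adjusted p = 0.0400) and did not in any of the 6 fits that left out a PNU library. Spry4, another ERK inhibitor, fell from 27.1, 18.6 and 19.6 CPM to 9.40, 11.4 and 11.98 CPM (log2 fold change -1.04, adjusted p = 0.00342).

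The 2 listed genes that rose were Spry1, an ERK inhibitor of the same family as Spry4, with a log2 fold change of 1.05 (adjusted p = 0.0316), and the receptor Egfr at 0.36 (adjusted p = 0.0464). Dusp4, Dusp6, Etv4, Etv5, Areg and Ereg did not pass, with log2 fold changes from -1.39 (Dusp4) to -0.08 (Areg). Leaving out any PNU library left 1 or 2 fallen members of the list, so the count depends on every library. Without DMSO 2 h replicate 3 it was 11 fallen and 2 risen, against 2689 and 2756 of all 12756 genes.

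Of 21 tested ligands, receptors and feedback genes of the LIF and interleukin-6 family 7 fell, 1 rose and 13 did not pass, with a median of -0.39. Leaving out a PNU library gave 2 to 6 fallen members. Lif, a cytokine that retinal glia and neurons exchange after injury, stood at 182, 99.2 and 101 CPM at 2 h and 15.3, 24.7 and 26.8 CPM at 6 h. All 2 h libraries were higher, with replicate 1 at the extreme of both times (log2 fold change -2.56, SE 0.67, adjusted p = 0.0253). Clcf1, a second gp130 ligand, was at 347, 281 and 285 CPM and 65.1, 106 and 107 CPM (log2 fold change -1.76, adjusted p = 0.0217). Neither of these kept its call in any of the 6 fits without a PNU library.

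Il6ra, the ligand-binding receptor chain for interleukin-6, and Socs2, a cytokine signalling suppressor, kept theirs in all 6. Il6ra was at 55.7, 44.2 and 46.00 CPM at 2 h and 19.7, 12.7 and 13.6 CPM at 6 h (log2 fold change -1.71, SE 0.29, adjusted p = 0.00663). Socs2 was at 145, 122 and 117 CPM and 66.9, 62.1 and 62.4 CPM (log2 fold change -1.04, SE 0.16, adjusted p = 0.00476). The groups of both genes were apart, and their 6 h libraries lay close to the DMSO 6 h libraries or below them, at 20.8, 19.8 and 20.4 CPM for Il6ra and 82.9, 83.3 and 86.4 CPM for Socs2. Il6, Socs3 and Cish also fell, with log2 fold changes of -1.22, -1.18 and -0.85. The shared receptor chain Il6st (log2 fold change 0.15) and the kinase gene Jak1 (0.23) did not pass. Cntfr, the receptor chain for ciliary neurotrophic factor, was the listed gene that rose, with a log2 fold change of 1.46 (adjusted p = 0.0371).

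Targets of ATF4 had the largest share of fallen members among the lists. Of 38 tested genes 27 fell and 0 rose, with a median of -0.61. Cars, the cysteinyl-tRNA synthetase, was at 164, 168 and 170.0 CPM at 2 h and 97.7, 99.6 and 99.1 CPM at 6 h. Within each time the libraries were nearly equal, and the times did not overlap (log2 fold change -0.80, SE 0.08, adjusted p = 0.000946). Mthfd2, an enzyme of mitochondrial one-carbon metabolism, was at 129, 120.3 and 122 CPM and 62.1, 58.8 and 57.7 CPM (log2 fold change -1.10, SE 0.12, adjusted p = 0.00160). Slc7a5, a chain of the large neutral amino acid transporter, was at 260.3, 241 and 248 CPM and 95.7, 89.4 and 90.8 CPM (log2 fold change -1.48, SE 0.18, adjusted p = 0.00206). All 3 genes passed in each of the 6 fits that left out a PNU library. Chac1, a glutathione-degrading enzyme, fell from 78.8, 77.9 and 75.4 CPM to 29.7, 16.4 and 18.2 CPM (log2 fold change -1.89, adjusted p = 0.00496).

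By role, the amino acid transporter genes Slc7a1, Slc7a11, Slc7a5 and Slc3a2 fell, with log2 fold changes of -1.58, -1.53, -1.48 and -0.81. The tRNA synthetases Aars, Cars, Gars, Mars, Nars, Eprs, Sars and Wars all fell, from -0.80 (Cars) to -0.26 (Sars). The serine and one-carbon enzymes Shmt2, Mthfd2, Psat1 and Psph fell, with log2 fold changes of -1.16, -1.10, -1.07 and -0.64, while Phgdh, the first enzyme of serine synthesis, did not pass (-0.18). Atf4 itself fell by 0.71 on the log2 scale, from 333, 325 and 315 CPM to 229, 193 and 189 CPM (adjusted p = 0.00512). Ddit3, the pro-apoptotic factor CHOP, did not pass, at -0.14 (adjusted p = 0.687), nor did Atf5 at 0.12. Leaving out a PNU library left 18 to 26 fallen members, and 24 had an unadjusted p under 0.05 with near-identical libraries summed. In DMSO none of the list passed, where 0 of all 12756 tested genes did, and the list's median was -0.18.

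The ATF4 element was in 6 of 26 promoter windows of this list (23.1%) and in 1.75% of all windows, and in 5 of 18 windows (27.8%) of the fallen members. With no limit on distance it was in 7 of 30 (23.3%) against 1.86%. The AP-1 site was in 2 of the 26, the E-box in 1, the E2F site in 3 and the CArG box in 0. Windows of 3 fallen members that hold the element are shown with the element or its reverse complement in capitals. They were taken by smallest p with the same chromosome left out. Chac1 is at chr2:119350992-119351241 on the plus strand, Asns, the asparagine synthetase, at chr6:7693210-7693459 on the minus strand, and Gars, the glycyl-tRNA synthetase, at chr6:55037751-55038000 on the plus strand.
Chac1: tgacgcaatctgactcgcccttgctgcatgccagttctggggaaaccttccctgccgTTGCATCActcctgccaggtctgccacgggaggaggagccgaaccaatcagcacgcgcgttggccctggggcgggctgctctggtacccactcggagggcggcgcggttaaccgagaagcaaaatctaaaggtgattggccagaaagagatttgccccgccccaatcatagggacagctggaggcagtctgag
Asns: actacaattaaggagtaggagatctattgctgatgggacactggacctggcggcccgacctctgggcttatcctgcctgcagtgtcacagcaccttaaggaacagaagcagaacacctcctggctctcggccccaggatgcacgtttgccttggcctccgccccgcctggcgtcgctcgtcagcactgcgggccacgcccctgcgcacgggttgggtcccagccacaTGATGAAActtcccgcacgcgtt
Gars: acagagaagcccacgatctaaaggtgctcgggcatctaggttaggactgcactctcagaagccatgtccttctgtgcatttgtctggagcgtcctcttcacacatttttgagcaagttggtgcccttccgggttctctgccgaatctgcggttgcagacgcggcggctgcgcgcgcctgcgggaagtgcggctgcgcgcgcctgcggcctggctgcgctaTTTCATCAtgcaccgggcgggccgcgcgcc

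The match begins 193, 23 and 30 bases before the start in these windows of Chac1, Asns and Gars. Asns was at 178, 160.4 and 158 CPM at 2 h and 126, 108 and 107 CPM at 6 h (log2 fold change -0.59, SE 0.10, adjusted p = 0.00599). Gars was at 274, 275 and 271 CPM and 181, 198 and 196 CPM (log2 fold change -0.56, SE 0.09, adjusted p = 0.00617). In both genes the times were separate and the spread within a time small.

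Ribosome biogenesis genes and other MYC targets fell in step. All 45 listed genes were tested, 31 fell, 0 rose, and every one of the 45 had a negative log2 fold change, with a median of -0.60. Rrp1b, a nucleolar protein of ribosomal RNA processing, was at 34.95, 31.8 and 30.8 CPM at 2 h and 17.8, 16.5 and 17.9 CPM at 6 h. Every 6 h library was below every 2 h library (log2 fold change -0.94, SE 0.11, adjusted p = 0.00191). Nolc1, a nucleolar phosphoprotein, was at 108, 109 and 107 CPM and 57.2, 70.6 and 70.9 CPM (log2 fold change -0.75, SE 0.15, adjusted p = 0.0117). Ppan and Rcl1, both processing factors, fell, with log2 fold changes of -0.85 and -0.65. Npm1 and Ncl, the abundant nucleolar proteins nucleophosmin and nucleolin, did not pass, at -0.24 (adjusted p = 0.343) and -0.42 (adjusted p = 0.145).

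Myc, the transcription factor behind the list's name, was at 121, 113 and 112 CPM at 2 h and 50.3, 65.4 and 63.7 CPM at 6 h. Its groups were apart and it passed in all 6 fits without a PNU library (log2 fold change -0.99, SE 0.21, adjusted p = 0.0142). The count of fallen ribosome genes was less stable, at 6 to 13 when a PNU library was left out, with the median between -0.63 and -0.51. With near-identical libraries summed 24 of the 45 had an unadjusted p under 0.05. The E-box that MYC can bind was in 2 of 39 windows of the list (5.13%) and in 8.85% of all windows.

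Of 42 tested genes of DNA replication and S phase, 20 fell, 0 rose and 22 did not pass, with a median of -0.67, and the 2 h libraries were above the 6 h libraries without overlap for 37 of the 42. Mcm3, a subunit of the replicative helicase, was at 98.6, 102 and 106 CPM at 2 h and 43.8, 62.2 and 59.4 CPM at 6 h. Replicate 1 at 6 h was the lowest, and the times were apart (log2 fold change -0.93, SE 0.21, adjusted p = 0.0169). Cdt1, which loads that helicase, was at 28.9, 32.7 and 33.9 CPM and 13.3, 19.3 and 18.5 CPM (log2 fold change -0.94, SE 0.21, adjusted p = 0.0154). Uhrf1, which keeps DNA methylation through replication, was at 66.3, 78.6 and 79.8 CPM and 35.8, 49.7 and 48.2 CPM (log2 fold change -0.79, SE 0.16, adjusted p = 0.0114). Between 1 and 6 genes of the list fell when a PNU library was left out. Without DMSO 2 h replicate 3, 37 fell, against 2689 of all 12756 genes. In DMSO 0 of all 12756 tested genes passed, so none of the list did, and its median was -0.40.

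The E2F site was in 11 of 34 promoter windows of the list (32.4%) and in 7.43% of all windows, and in 4 of 18 windows (22.2%) of its fallen members. The E-box was in 2 of the 34, the ATF4 element in 1 and the AP-1 site in 0. The windows of 2 fallen members with the site are shown, taken by smallest p with the same chromosome left out. Uhrf1 is at chr17:56303087-56303336 on the plus strand. Mcm7, another helicase subunit, is at chr5:138171884-138172133 on the minus strand. The site or its reverse complement is in capitals and begins 48 and 165 bases before the start.
Uhrf1: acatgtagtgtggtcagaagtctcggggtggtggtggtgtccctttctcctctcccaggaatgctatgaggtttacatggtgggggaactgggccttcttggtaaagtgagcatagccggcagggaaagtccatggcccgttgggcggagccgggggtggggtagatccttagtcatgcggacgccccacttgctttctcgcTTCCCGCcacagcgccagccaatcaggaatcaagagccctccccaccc
Mcm7: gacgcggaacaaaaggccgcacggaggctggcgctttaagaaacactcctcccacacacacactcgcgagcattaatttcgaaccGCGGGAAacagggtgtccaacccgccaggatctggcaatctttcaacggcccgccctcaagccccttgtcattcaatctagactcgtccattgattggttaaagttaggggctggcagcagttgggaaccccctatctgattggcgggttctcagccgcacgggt

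Mcm7 was at 109, 115 and 117 CPM at 2 h and 56.03, 76.5 and 72.4 CPM at 6 h, without overlap (log2 fold change -0.78, SE 0.22, adjusted p = 0.0354).

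Of 39 tested genes of G2 and mitosis 1 fell and 0 rose, with a median of -0.38 in PNU and -0.32 in DMSO. The 6 h libraries were lower without overlap for 22 of them. Without DMSO 2 h replicate 3, 19 fell, against 2689 of all 12756 genes. The gene that fell was Aurkb, a mitotic kinase, from 50.7, 55.5 and 55.8 CPM to 22.3, 36.8 and 37.5 CPM (log2 fold change -0.79, adjusted p = 0.0457), and it lost the call in each of the 6 fits without a PNU library. Mki67, a marker of cycling cells, was at 124, 144 and 147 CPM at 2 h and 63.1, 112 and 113 CPM at 6 h. Its groups did not overlap, but replicate 1 at 6 h was far below replicates 2 and 3, and it did not pass (log2 fold change -0.57, SE 0.30, adjusted p = 0.182). Among 16 G1 cyclins, kinases and inhibitors, 4 rose and 4 fell. The kinases Cdk2 and Cdk4 fell, with log2 fold changes of -0.59 and -0.32, and the inhibitors Cdkn1c, Cdkn2a and Cdkn2b rose, by 2.21, 0.55 and 0.52. Ccnd2, a G1 cyclin, rose as well, by 0.58, and the inhibitor Cdkn2c fell, at -0.39. In bulk RNA fewer cells of a kind and less RNA per cell cannot be told apart, which holds for all results here.

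**Figure D2:**
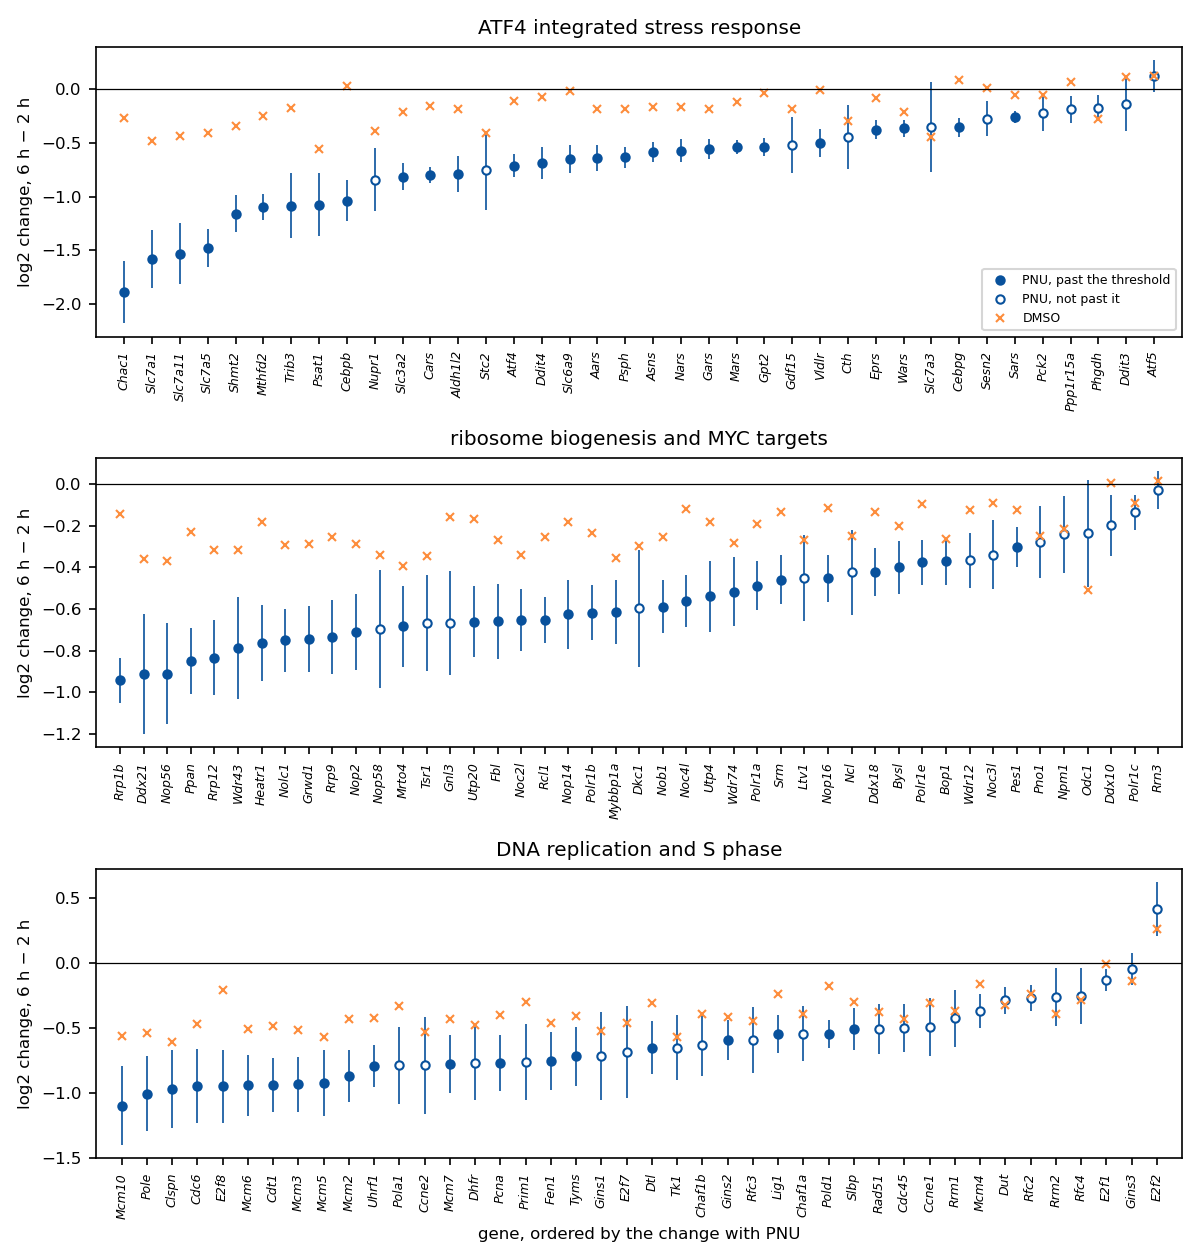
Log2 change from 2 h to 6 h of each tested member of 3 gene lists, ordered by the change with PNU; bars are SE, filled circles passed the test, open circles did not, and crosses give the change with DMSO. All 45 ribosome biogenesis genes lie below 0 with PNU, and 27 of the 38 ATF4 genes and 20 of the 42 replication genes passed as lower.

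Several genes that fell most were neither early genes nor growth genes. Has1, a hyaluronan synthase, was at 80.98, 57.4 and 56.2 CPM at 2 h and 10.7, 3.14 and 3.57 CPM at 6 h. Every 2 h library was higher, with replicate 1 the highest at each time (log2 fold change -3.52, SE 0.94, adjusted p = 0.0273), and the call held in 1 of the 6 fits without a PNU library. Col2a1, the fibrillar collagen of cartilage and vitreous, was at 66.5, 89.3 and 91.97 CPM and 3.69, 13.5 and 12.6 CPM (log2 fold change -3.10, SE 0.76, adjusted p = 0.0209), and it too passed in 1 of those 6 fits. Sox9, a regulator of Col2a1 and of Müller glia identity, stood at 292, 214 and 230.3 CPM at 2 h and 63.4, 71.8 and 70.98 CPM at 6 h. The times were apart, and it passed in all 6 fits without a PNU library (log2 fold change -1.88, SE 0.26, adjusted p = 0.00342). Col10a1, a collagen of hypertrophic cartilage, was at 2.63, 11.03 and 10.4 CPM and 1.00, 0.933 and 0.799 CPM, so that replicate 1 at 2 h was well below replicates 2 and 3 (log2 fold change -3.17, adjusted p = 0.00308).

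Dlk1, an imprinted Notch ligand homologue, was at 125, 305 and 302 CPM at 2 h and 45.6, 30.1 and 27.9 CPM at 6 h. Replicate 1 was the lowest at 2 h and the highest at 6 h, and the times did not overlap (log2 fold change -2.85, SE 0.39, adjusted p = 0.00318). Its DMSO libraries were at 107, 85.3 and 194 CPM at 2 h and 105, 105 and 100.0 CPM at 6 h. The zinc finger gene Zfp469 was at 42.1, 39.5 and 40.6 CPM and 4.87, 5.10 and 5.58 CPM with PNU (log2 fold change -3.02, adjusted p = 0.00660). Dlx3, a homeobox factor, fell by 2.70 on the log2 scale, from 21.98, 12.7 and 12.1 CPM to 1.26, 2.69 and 3.46 CPM. Kank4 and Fam110c fell as well (log2 fold changes -2.45 and -2.97), and Fam110c lost its call whenever a PNU library was left out. In Has1, Col2a1, Zfp469 and Fam110c, DMSO 2 h replicate 3 was several times above its own replicates, for example 1.81, 1.47 and 24.2 CPM in Has1 and 11.6, 9.57 and 79.3 CPM in Col2a1.

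H19, an imprinted long noncoding RNA, was at 2.56, 2.57 and 2.06 CPM at 2 h and 17.1, 50.7 and 53.2 CPM at 6 h. All 6 h libraries were higher, with replicate 1 well below replicates 2 and 3 (log2 fold change 4.03, SE 0.70, adjusted p = 0.00663). Igf2, the imprinted growth factor that neighbours H19, was at 0.906, 1.35 and 1.22 CPM and 4.85, 16.03 and 17.3 CPM, with the same order of libraries at 6 h (log2 fold change 3.41, SE 0.59, adjusted p = 0.00663). Cdkn1c, an imprinted inhibitor of cyclin-dependent kinases, was at 1.37, 1.11 and 1.04 CPM and 7.64, 4.62 and 4.50 CPM, here with replicate 1 the highest at 6 h (log2 fold change 2.21, SE 0.38, adjusted p = 0.00655). All 3 genes passed in each of the 6 fits without a PNU library.

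In DMSO H19 was at 18.8, 17.1 and 2.11 CPM at 2 h and 12.8, 12.1 and 11.2 CPM at 6 h, and Igf2 at 6.35, 5.83 and 1.31 CPM and 4.89, 5.12 and 4.95 CPM. The PNU 2 h libraries were thus below DMSO 2 h replicates 1 and 2 and near replicate 3, and PNU 6 h replicate 1 was nearer to the DMSO 6 h libraries than replicates 2 and 3 were. Among 21 tested genes of insulin and IGF signalling 4 rose and 1 fell. Irs1 rose from 25.5, 27.7 and 29.6 CPM to 59.2, 67.5 and 70.8 CPM and Irs2 fell from 64.1, 59.8 and 62.4 CPM to 35.4, 36.00 and 35.00 CPM, so the 2 adaptor proteins of the insulin receptor moved in opposite directions (log2 fold changes 1.21 and -0.85, adjusted p = 0.0140 and 0.00326). Igfbp2, a binding protein of IGF, was at 51.7, 60.9 and 59.5 CPM and 49.4, 209.8 and 218 CPM and did not pass (adjusted p = 0.121). Its replicate 1 at 6 h lay below all 2 h libraries and replicates 2 and 3 far above them.

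Of 26 tested matrix proteases and inhibitors 6 rose and 0 fell, with a median of 0.30, and 4 others were lower at 6 h without overlap. Without DMSO 2 h replicate 3 the counts were 8 risen and 4 fallen, against 2756 and 2689 of all 12756 genes. Mmp3, stromelysin 1, was at 0.994, 1.07 and 0.752 CPM at 2 h and 1.12, 11.9 and 11.3 CPM at 6 h. At 6 h replicates 2 and 3 were far above replicate 1, which was just above the 2 h libraries, so the fitted log2 fold change of 3.07 (SE 0.65, adjusted p = 0.0131) averages unlike libraries. Adamts9, a proteoglycan-degrading protease, was at 1.90, 1.52 and 1.71 CPM and 8.03, 5.04 and 5.06 CPM, higher in every 6 h library (log2 fold change 1.78, SE 0.31, adjusted p = 0.00663). Adamts1 and Adamts5 rose by 1.39 and 1.25 on the log2 scale, and Mmp23 by 1.55. The protease inhibitor gene Serpine2 rose from 21.1, 12.03 and 11.3 CPM to 23.7, 39.95 and 39.3 CPM (adjusted p = 0.0129). Plaur, Timp1 and Timp3 had log2 fold changes of -1.68, -1.01 and -0.94 and did not pass. Leaving out a PNU library gave 1 to 6 risen and 0 to 1 fallen genes.

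Replicates also differed in the other genes of largest rise. Asb5, an ankyrin repeat and SOCS box protein, was at 0.950, 0.566 and 0.421 CPM at 2 h and 1.70, 27.2 and 24.7 CPM at 6 h. Replicates 2 and 3 at 6 h were far above replicate 1, which was itself above the 2 h libraries (log2 fold change 4.75, SE 0.81, adjusted p = 0.00656). Asb5 entered the test through 6 h alone. Skeletal muscle markers other than Des and Ckm were higher in replicates 2 and 3 than in replicate 1 at 6 h, as were Asb5, H19 and Igf2. Des was even at 6 h, at 3.88, 3.61 and 3.93 CPM. The 10 markers summed to 5.29 to 6.20 CPM at 2 h and 8.48 to 21.5 CPM at 6 h, Pax7 was at 0.0884, 0.0218 and 0.0301 CPM and then 0.141, 1.55 and 2.38 CPM, and Myod1 was at 0 at 2 h and at 0.0176, 0.886 and 1.05 CPM at 6 h. Ckm was at 0.0653 CPM or less throughout, and 1 of 2 tested markers, Acta1, rose. The part of these markers in the rises was not tested. Gabra3, a GABA-A receptor subunit, was at 2.01, 0.740 and 0.737 CPM and 3.32, 5.97 and 6.29 CPM, and Il7, a lymphoid growth cytokine, at 1.15, 1.33 and 1.61 CPM and 3.27, 5.78 and 6.83 CPM. These too were lower in replicate 1 at 6 h (log2 fold changes 2.12 and 1.91, adjusted p = 0.00820 and 0.00300). The reverse order held for Ms4a4d, Prickle1, Maob and Cpxm1. Maob, monoamine oxidase B, was at 1.79, 2.31 and 1.92 CPM at 2 h and 13.3, 5.04 and 5.96 CPM at 6 h, highest in replicate 1 (log2 fold change 1.98, SE 0.46, adjusted p = 0.0180).

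Ms4a4d was at 46.3, 10.8 and 11.1 CPM at 6 h, against 6.25, 3.59 and 4.21 CPM at 2 h, and its adjusted p of 0.0489 passed in no fit that left out a PNU library. Fbln1, the matrix protein fibulin 1, was even across replicates, at 2.81, 2.55 and 3.10 CPM and 13.8, 10.1 and 11.6 CPM (log2 fold change 2.03, adjusted p = 0.0149). Pamr1 was even as well at 6 h, at 5.24, 2.94 and 2.99 CPM and 14.2, 13.5 and 14.1 CPM (log2 fold change 1.86, adjusted p = 0.00820). Zfp467 and Arsi, a zinc finger protein and a sulfatase, rose by 1.94 and 1.81 on the log2 scale. Over all 1334 risen genes, the change between same-numbered libraries was larger for replicate 1 than for replicates 2 and 3 in 837 genes, and by more than 1 log2 unit for 26, while it was smaller by more than 1 unit for 30 (log2 of CPM + 0.5).

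**Figure D3:**
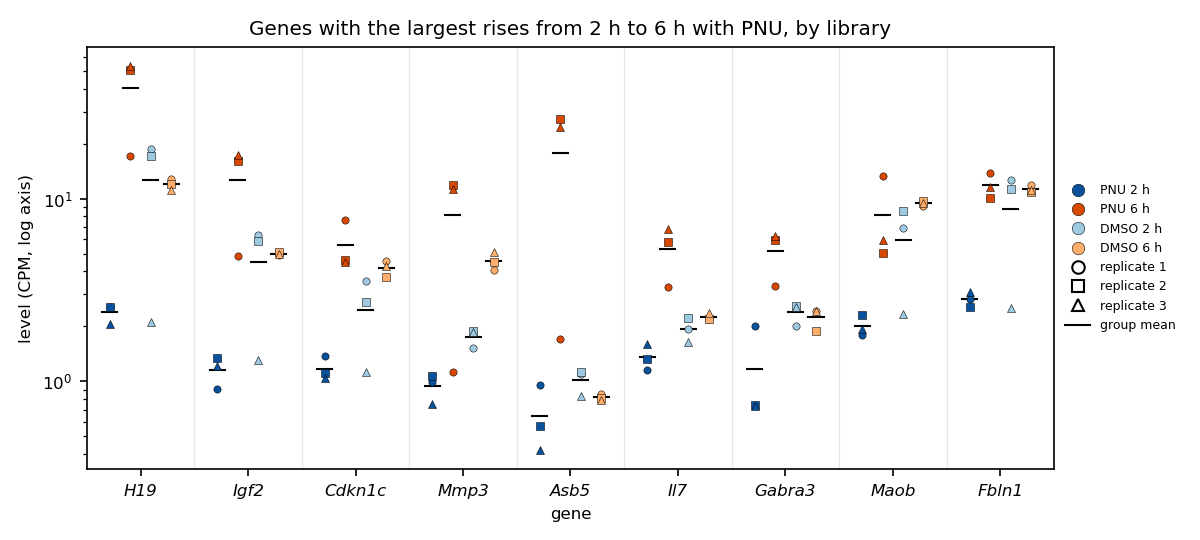
Levels in CPM on a log axis of 9 of the genes that rose most, in all 12 libraries; colours give the group, symbols the replicate and short lines the group mean. Asb5 was at 27.2 and 24.7 CPM in PNU 6 h replicates 2 and 3 and at 1.70 CPM in replicate 1, whereas Fbln1 ran from 10.1 to 13.8 CPM.

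Of the nicotinic list, to which the receptor of the drug belongs, 8 of 22 genes were tested, 5 rose and 1 fell. The tested members that rose are chaperones, cholinesterases and receptor-binding proteins. Ric3, a chaperone of nicotinic receptor assembly, was at 0.862, 1.04 and 0.902 CPM at 2 h and 3.07, 2.44 and 2.70 CPM at 6 h, higher in every 6 h library (log2 fold change 1.51, SE 0.18, adjusted p = 0.00206). Its DMSO libraries also differed between the times without overlap, at 0.777, 0.985 and 0.719 CPM and 1.85, 1.59 and 2.08 CPM, although it did not pass there. Ly6e and Lynx1, membrane-anchored proteins that bind nicotinic receptors, rose by 0.44 and 0.69 on the log2 scale. The cholinesterases Ache and Bche rose by 1.15 and 1.03 from 2 h levels of 2.04 CPM or less (Bche). Ache was under 1 CPM in every 2 h library and entered the test through 6 h alone, so the filter favoured its rise. Tmem35a, the chaperone NACHO, fell by 0.56 on the log2 scale. The subunits Chrnb1 and Chrnb2 did not pass, and Chrna7, the target of PNU, ran from 0.331 to 0.609 CPM in the 2 h libraries and from 0.580 to 0.611 CPM at 6 h, too low to be among the genes tested. The muscle subunit Chrna1 was also not tested, at 0.619, 0.370 and 0.646 CPM at 2 h and 0.913, 4.03 and 3.54 CPM at 6 h, higher in every 6 h library and most in replicates 2 and 3.

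Metabolic lists moved in both directions. Of 31 glycolysis and hypoxia genes 8 rose and 4 fell. The fallen ones were Hk2, Pfkfb4, Vegfa and Slc2a1, of which Hk2, the inducible hexokinase, went from 297, 212 and 225 CPM at 2 h to 70.9, 69.6 and 73.5 CPM at 6 h (log2 fold change -1.82, SE 0.42, adjusted p = 0.0178). Vegfa, the vascular growth factor, was at 758, 604 and 607 CPM and 311, 268 and 264 CPM (log2 fold change -1.26, adjusted p = 0.0241). The risen ones included Slc16a3, a lactate exporter, and Pdk1 and Bnip3, with log2 fold changes of 1.23, 0.97 and 0.85. Among 24 cholesterol genes 4 rose. Dhcr7, of the last steps of synthesis, rose from 7.67, 9.27 and 8.97 CPM to 26.9, 15.2 and 15.3 CPM, most in replicate 1 (log2 fold change 1.11, adjusted p = 0.0212). Fdps and Nsdhl, also enzymes of the pathway, rose by 0.74 and 0.76. Leaving out a PNU library gave 0 to 7 risen glycolysis genes and 0 to 3 risen cholesterol genes.

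Stress and hormone response genes gave mixed counts. Of 25 NRF2 targets 5 fell and 1 rose. Hmox1, heme oxygenase 1, was at 1485, 1300 and 1256 CPM at 2 h and 416, 598 and 585 CPM at 6 h, and its call held in none of the 6 fits without a PNU library (log2 fold change -1.38, SE 0.37, adjusted p = 0.0275). Of 21 clock genes 6 fell and 1 rose. Per2 was at 19.3, 16.6 and 16.96 CPM and 4.85, 7.04 and 6.77 CPM, and Cry1 at 17.5, 15.8 and 17.2 CPM and 7.13, 8.52 and 7.32 CPM (log2 fold changes -1.55 and -1.18). Bhlhe40, a repressor in the same loop, fell by 1.95 on the log2 scale. Clock and Arntl, its core activators, did not pass. Of 15 glucocorticoid targets 3 fell and 2 rose, among them Fkbp5, at 41.9, 42.7 and 43.9 CPM and 11.8, 15.9 and 15.1 CPM (log2 fold change -1.63, SE 0.24, adjusted p = 0.00445), and Cebpd, which rose from 45.8, 39.3 and 37.99 CPM to 150.2, 89.1 and 88.3 CPM.

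Of 42 TGF-beta, activin and BMP genes 8 fell and 2 rose. The ligand Tgfb1, the receptors Tgfbr1 and Acvr1, the mediator Smad3 and the inhibitor Smad7 fell, with log2 fold changes from -0.96 (Tgfb1) to -0.37 (Smad3). Inhbb, an activin subunit, rose from 4.11, 5.20 and 5.19 CPM to 9.56, 9.28 and 10.1 CPM (log2 fold change 0.95, SE 0.15, adjusted p = 0.00513). Among 17 Notch genes 3 rose and 3 fell: the target Hey2 rose from 0.707, 0.718 and 0.917 CPM to 4.20, 2.80 and 2.68 CPM, and the receptor Notch2 fell from 234, 216 and 222 CPM to 165, 119 and 129 CPM (log2 fold changes 2.00 and -0.74). Of 34 Wnt genes 5 rose and 1 fell. Rspo3, a Wnt enhancer, rose from 0.133, 0.239 and 0.241 CPM to 3.21, 1.63 and 1.27 CPM, and the inhibitor Dkk2 fell from 18.6, 17.9 and 18.1 CPM to 2.13, 7.43 and 7.84 CPM (log2 fold changes 3.25 and -1.69). Both Hey2 and Rspo3 were under 1 CPM in every 2 h library and entered the test through 6 h alone.

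Of 31 chemokine, cytokine and NF-kappaB feedback genes 6 fell and 4 rose. The fallen ones included Tnfaip2, from 399.8, 372 and 378 CPM to 164, 171 and 174 CPM, and Cx3cl1, a membrane-bound chemokine, from 108, 109 and 109 CPM to 73.3, 40.99 and 44.3 CPM (log2 fold changes -1.21 and -1.08). Risen and fallen counts of further lists, to be read against 10.5% and 10.9% over all genes, were given by fatty acid synthesis (2 risen and 1 fallen of 14), collagen chains (1 and 2 of 21), heat shock proteins (1 and 2 of 21), endoplasmic reticulum chaperones (2 and 3 of 24), interferon response (2 and 1 of 22), p53 targets (4 and 1 of 25), YAP and TEAD targets (5 and 3 of 29) and vascular, FGF and PDGF factors (1 and 1 of 26). The collagen list did not hold Col2a1 or Col10a1, which both fell as given above. In smaller lists, 2 of 10 vasoactive genes rose and 2 fell, 2 of 8 aryl hydrocarbon receptor genes fell, and 1 of 13 retinoid genes rose and 2 fell. None of the 7 tested mitochondrially encoded genes passed, with a median of 0.30.

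**Figure D4:**
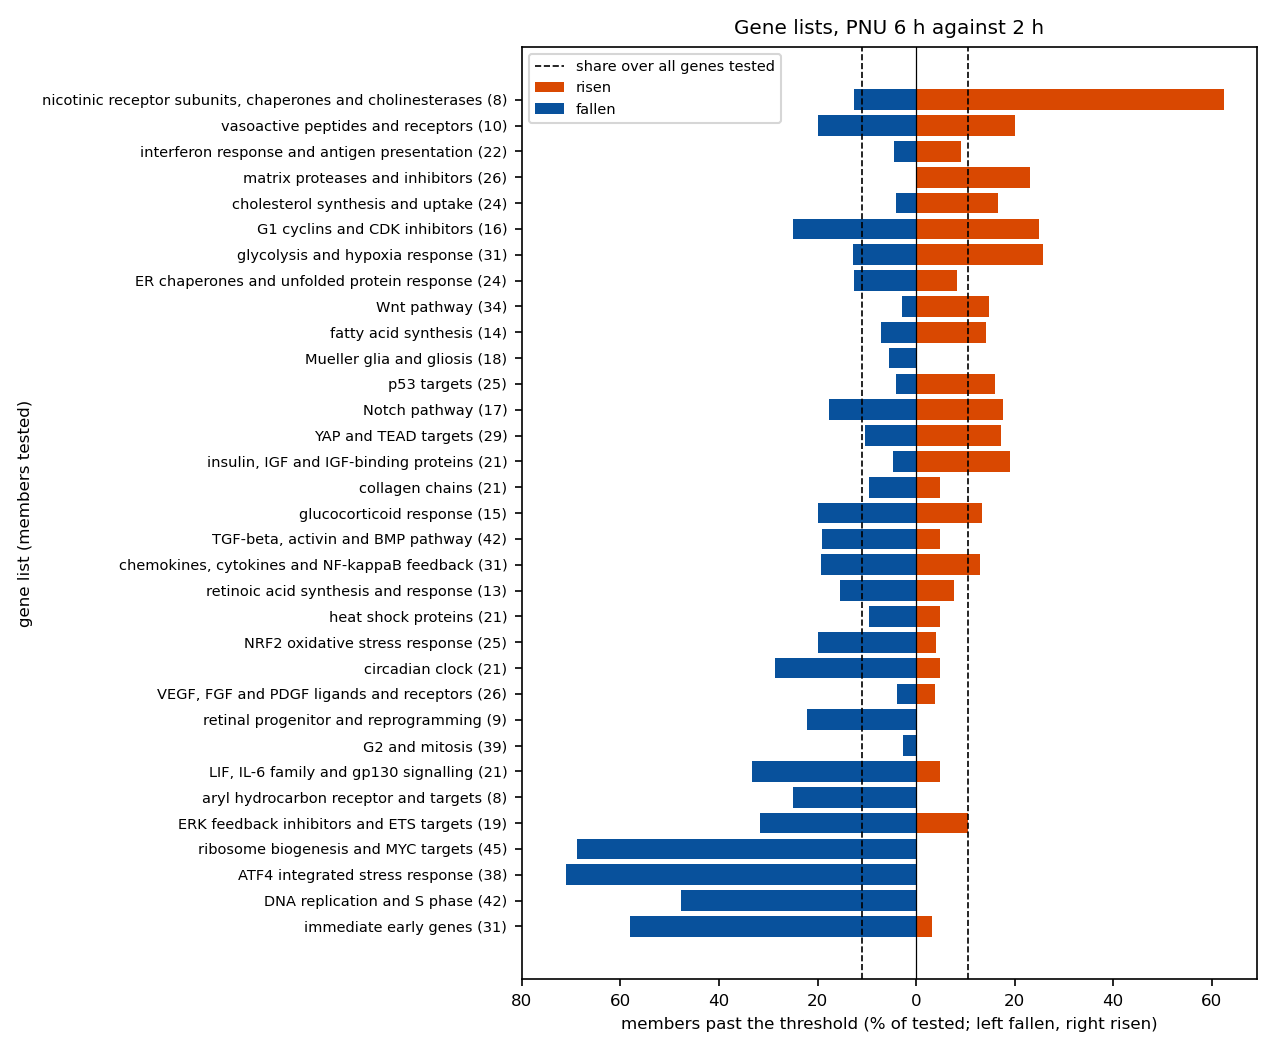
Share of tested members that rose (right) and fell (left) from 2 h to 6 h with PNU, for each gene list with at least 8 tested members, in % and ordered by the median change; dashed lines give 10.5% risen and 10.9% fallen over all genes. ATF4 targets (27 of 38), ribosome biogenesis (31 of 45), immediate early genes (18 of 31) and DNA replication (20 of 42) lie farthest to the left.

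Markers of the labelled cell type were only partly present. Of 30 Müller glia and gliosis markers, 11 stayed under 1 CPM in all 6 PNU libraries, Gfap, Rlbp1, Aqp4 and Kcnj10 among them, and Rgr was at 0 in all. Vim ran from 6397 to 7451 CPM and Glul from 66.7 to 94.4 CPM over both times. The list's summed level was 10506 to 10881 CPM at 2 h and 8448 to 10167 CPM at 6 h. Of 18 tested members Sox9 fell and 0 rose. A list of 20 fibroblast markers summed to 18014 to 20111 CPM at 2 h and 22699 to 24826 CPM at 6 h, higher in every 6 h library. Of 15 tested fibroblast markers 3 rose, Fbln1, Fbln2 and Mfap5, the latter 2 by 0.73 and 0.59. The 15 did not move together: 8 had a positive log2 change, with a median of 0.07. Without overlap, 6 were higher at 6 h and 3 were lower, Col1a1 among the lower. RPE markers summed to 17.8 to 31.9 CPM and then 18.01 to 50.8 CPM, with Rpe65 at 0.0442 CPM or less. Of these 19 markers 14 stayed under 1 CPM in all 6 PNU libraries. Bmp4 alone was at 22.05, 7.12 and 7.05 CPM at 2 h and 38.7, 5.38 and 5.20 CPM at 6 h. The part of these markers in the results was not tested.

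Y-linked and retinal progenitor genes differed between replicates. Ddx3y, on the Y chromosome, was at 2.23, 0.0870 and 0.0150 CPM in the 2 h libraries and at 0.141, 7.43 and 6.74 CPM in the 6 h libraries. In DMSO it was at 0.0338, 0.0386 and 5.00 CPM at 2 h and 0.0451, 0.0378 and 0.141 CPM at 6 h. DMSO 2 h replicate 3 and its nearest library, PNU 2 h replicate 1, were thus the 2 h libraries that carried it. Sex-linked Xist, too low to be tested, was at 0.133, 0.0653 and 0.0902 CPM at 2 h and 0.439, 2.46 and 2.13 CPM at 6 h with PNU. Its PNU groups did not overlap, and PNU 6 h replicates 2 and 3 carried both Ddx3y and Xist. In DMSO Xist was at 0.777, 0.888 and 0.0469 CPM at 2 h and 1.15, 1.23 and 0.969 CPM at 6 h. The retinal progenitor genes Six3, Sox2 and Pax6 showed another split: Pax6 was at 0.574, 14.9 and 14.9 CPM at 2 h and 0.281, 12.2 and 12.6 CPM at 6 h, high in replicates 2 and 3 of both times. Six3 was at 0.287, 9.92 and 10.2 CPM and 0.105, 10.7 and 10.6 CPM. For Pax6 and Six3 the split thus followed the replicate number at both times with PNU. In the DMSO libraries Pax6 was at 0.251 CPM or less and Six3 at 0.0705 CPM or less. For Ddx3y the high replicates changed between the times, so differences between times and between cultures cannot be told apart. Of 9 tested progenitor and reprogramming genes only Klf4 and Myc passed, both lower, and Lin28a was at 0 in all 6 PNU libraries.

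Over the same interval with DMSO, 0 genes passed, 0% of those tested, with 566 at an unadjusted p under 0.05, 20 by DESeq2 and 0 by limma-voom. The fold changes had the sign of the PNU change for 1138 of the 1334 risen genes, with a median of 0.14, and for 1211 of the 1394 fallen genes, with a median of -0.14. The share of matching signs over all tested genes was not counted. DMSO 2 h replicate 3 was nearer to the PNU 2 h mean than to the PNU 6 h mean in 1171 of the fallen genes, against 371 for replicate 1 and 308 for replicate 2. Among the risen genes these numbers were 1184, 446 and 260. Replicate 3 enters the DMSO changes, and its part in the matching signs was not tested. The difference between both time effects was tested directly, and 8 genes passed (0.0627%), 4 higher (0.0314%) and 4 lower (0.0314%) with PNU. Without DMSO 2 h replicate 3 that count was 3115, without PNU 6 h replicate 1 it was 172, and with near-identical libraries summed or the replicate number as a block it was 0, with 145 and 1566 at an unadjusted p under 0.05. It was also 0 without PNU 2 h replicate 2 or 3, PNU 6 h replicate 2 or 3, or any single DMSO 6 h library.

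Cxcl1, a neutrophil chemokine, was at 15.4, 13.5 and 12.9 CPM at 2 h and 38.9, 39.1 and 39.00 CPM at 6 h with PNU, and at 25.6, 26.6 and 20.5 CPM and 30.4, 29.9 and 30.6 CPM with DMSO. The PNU 6 h libraries were above all others and the PNU 2 h libraries below all others (difference of the log2 changes 1.14, SE 0.14, adjusted p = 0.0352). Parm1, a mucin-like membrane protein, was at 33.03, 31.5 and 30.2 CPM and 78.9, 67.3 and 67.1 CPM with PNU and at 21.7, 22.2 and 24.6 CPM and 27.8, 26.5 and 26.1 CPM with DMSO (difference 0.92, SE 0.13, adjusted p = 0.0440). Rab32, a small GTPase of lysosome-related organelles, was at 20.4, 20.5 and 20.6 CPM and 35.8, 38.99 and 40.2 CPM with PNU and from 22.8 to 27.5 CPM over all 6 DMSO libraries (difference 0.88, adjusted p = 0.0352). Sema5b, a semaphorin, was under 5 CPM in every library, at 2.08, 1.96 and 1.61 CPM and 3.41, 3.11 and 2.92 CPM with PNU.

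The 4 genes with a lower change in PNU than in DMSO each fell with PNU. Apln, the peptide ligand apelin, was at 22.7, 27.8 and 26.5 CPM at 2 h and 16.5, 14.9 and 14.00 CPM at 6 h with PNU, and at 24.4, 25.2 and 27.6 CPM and 30.1, 29.7 and 30.00 CPM with DMSO. The 2 h levels of both arms overlapped and the 6 h levels were apart (difference -0.9995, SE 0.14, adjusted p = 0.0394). Clmp, an adhesion molecule, was at 55.4, 64.6 and 61.3 CPM and 43.6, 42.2 and 42.1 CPM with PNU and at 53.1, 59.5 and 54.9 CPM and 65.6, 65.02 and 69.2 CPM with DMSO (difference -0.78, SE 0.09, adjusted p = 0.0352). Fnip2, a folliculin partner in nutrient sensing, was at 22.4, 24.2 and 23.2 CPM and 12.7, 12.6 and 12.1 CPM with PNU, and Aldh18a1, an enzyme of proline synthesis, at 145, 138 and 139.6 CPM and 92.97, 88.5 and 89.3 CPM. With DMSO they were at 19.2, 22.9 and 19.3 CPM and 18.1, 20.2 and 19.9 CPM (Fnip2), and at 135, 130.3 and 127 CPM and 122, 126 and 126 CPM (Aldh18a1).

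**Figure D5:**
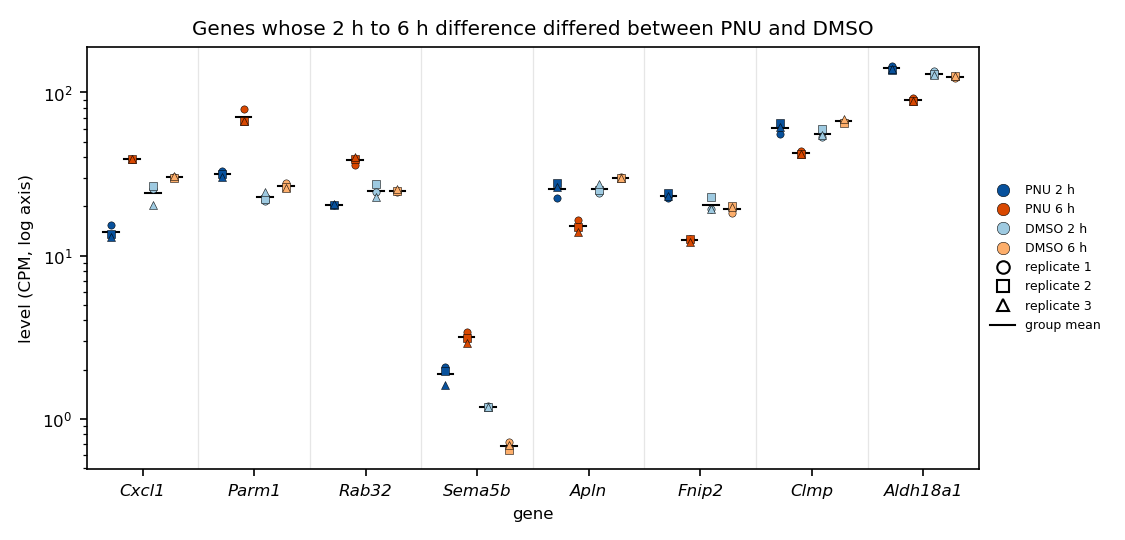
Levels in CPM on a log axis, in all 12 libraries, of the 8 genes whose change from 2 h to 6 h differed between PNU and DMSO; colours give the group, symbols the replicate and short lines the group mean. Cxcl1 was at 12.9 to 15.4 CPM with PNU at 2 h and at 38.9 to 39.1 CPM at 6 h, with the DMSO libraries between 20.5 and 30.6 CPM.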

How the data were processed

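RNA of the recipient glia was sequenced in 12 libraries. Per the labels the deposited values are raw counts per gene, not normalized by the authors. Per the labels' protocols, libraries from poly(A) RNA were trimmed by fastp 0.23.2, mapped to GRCm38 by STAR 2.5.2b and counted by featureCounts (Subread 1.5.2), with no strand setting stated, so overlapping and antisense genes cannot be told apart. Counts of all 12 libraries entered edgeR's quasi-likelihood test (TMM, robust) with 4 group means, tested over the 12756 genes with at least 1 CPM in 3 of the 6 PNU libraries, with Benjamini-Hochberg adjustment at 0.05. The members and gene lists were chosen with earlier results of these data known. Named genes were the 15 risen and 15 fallen of largest change among called, non-overlapping genes whose higher group averaged 5 CPM or more, up to 4 called members of each list by smallest p, up to 5 genes per direction of the PNU minus DMSO contrast, and a fixed set. Deviations of same-numbered PNU libraries correlated at 0.307, 0.272 and 0.258, each over 0.1, which met the criterion for pairing. Replicates 2 and 3 could not be told apart, with 0.272 and 0.241 across their numbers. Alternatives were other scalings, DESeq2, limma-voom, other filters, a replicate block, a minimum fold of 1.2, summed libraries and each library left out. A few genes of the lists are not reported here.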

Additional observations from a re-analysis of the deposited data

Results flagged for a closer look

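The change from 2 h to 6 h differed between PNU and DMSO for 8 genes by a test of the difference itself (edgeR quasi-likelihood test, adjusted p under 0.05). The difference, PNU minus DMSO on the log2 scale, was 1.51 for Sema5b, 1.14 for Cxcl1, 0.92 for Parm1 and 0.88 for Rab32. It was -0.9995 for Apln, -0.85 for Fnip2, -0.78 for Clmp and -0.59 for Aldh18a1. None of the 8 passed with a replicate block, with near-identical libraries summed or with a minimum fold of 1.2. They also all lost the call without PNU 2 h replicate 2 or 3, PNU 6 h replicate 2 or 3, or any single DMSO 6 h library.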

How the results depend on the processing

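The 2728 genes called with PNU became 5091 with the 6 PNU libraries alone, 494 with a minimum fold of 1.2 and 0 with near-identical libraries summed. With a replicate block over all 12 libraries, 2734 were called, 2483 of them shared. That block also ties PNU to DMSO libraries, whose same-numbered deviations correlated at only -0.036 to 0.0505. Between the times within DMSO they correlated at -0.0082 to 0.135. The block is thus matched to the PNU pairing only. With the 6 PNU libraries alone, an alternative chosen after seeing the data, the block gave 5148. Leaving out 1 PNU library gave 631 to 1629. Leaving out 1 DMSO library, also chosen after seeing the data, gave 1760 to 5445. For DMSO 6 h against 2 h, DESeq2 called 20 genes, and leaving out 1 library gave 0 to 4. The 8 genes of the PNU minus DMSO contrast became 311 with DESeq2, 15 with no filter, and 0 with the replicate block, a minimum fold of 1.2 or summed libraries. Leaving out 1 library gave 0 to 3115 for that contrast, the highest without DMSO 2 h replicate 3. The cause of these shifts was not tested. Of the 151 genes of the naming rule that passed, none changed direction in a setting that tested it. The choice largely fixed that outcome, since these genes were picked as called in the same data. Those of largest change were also picked as non-overlapping. Of the 151 genes, 36 to 78 lost the call without 1 PNU library and 4 with the block. At 3 counts, levels under 0.0451 to 0.0663 CPM could not be detected in the PNU libraries.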
